A study of Homo sapiens with 6 samples.

Results

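Of 54261 gene rows in the count table, 9 are brush border genes of the kidney proximal tubule, picked by symbol for their known place in that membrane: CUBN, LRP2, ANPEP, MME, DPP4, GGT1, ENPEP, AQP1 and VIL1. They were compared between 7R, a line of 786-O cells that the labels call sunitinib-resistant, and 786-O cells labelled control. 786-O is an established line from a human clear cell renal carcinoma, a tumour thought to arise from proximal tubule epithelium, and it lacks functional VHL, which both lines are then taken to share. Sunitinib inhibits VEGF and PDGF receptors and related kinases. Total RNA of each line was sequenced as 3 libraries, called resistant and control here. The labels give 1640 medium for both lines, and they state neither whether sunitinib was present at harvest nor whether the 3 libraries were grown separately. The p-values therefore cover library-to-library spread alone, part or all of which could be technical. In bulk RNA, fewer cells expressing a gene and less of its RNA per cell cannot be told apart. As 7R is 1 line, resistance and any other difference that arose while it was derived cannot be told apart.

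The brush border is the dense carpet of microvilli on the apical face of proximal tubule cells. Megalin (LRP2) and cubilin (CUBN) are the endocytic receptors that take up filtered proteins there, the ectopeptidases ANPEP, MME, DPP4 and ENPEP and the glutathione-degrading enzyme GGT1 cut peptides at the cell surface, AQP1 is the water channel, and villin (VIL1) bundles the actin core of microvilli. Cells lose much of this membrane in culture and in tumours.

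The resistant libraries held 37919629 to 38131634 counts and the control libraries 48264905 to 52221491. Resistant replicate 1 stood apart within its line: the chi-square per degree of freedom of its counts against the other resistant libraries was 60.1 and 62.9, against 8.94 for resistant replicates 2 and 3 and 12.4 to 35.5 among control libraries. The 2 lines differed broadly, with 76.2% of 16642 tested genes called at an adjusted p under 0.05 (39.3% higher and 36.9% lower in the resistant line). Fold change also followed the GC content of transcripts. The median log2 fold change was 1.32 in the lowest and -1.35 in the highest of 10 equal groups of genes by GC content. Libraries of the same line differed along GC content too. The log2 ratio of resistant replicate 1 to replicates 2 and 3 had Spearman correlations of 0.55 and 0.49 with GC content. The correlation was -0.13 for resistant replicate 2 over replicate 3, and -0.33 to -0.51 among control libraries. Fold changes of tested genes are therefore given on the TMM scale and again after a smooth trend on transcript GC content and length was taken out of each library (called adjusted), while levels, sums and ratios of counts are on the TMM scale unless called adjusted. The adjusted fit left 66.9% of 14212 genes called (34.3% higher and 32.6% lower). Any biological change that runs with GC content is removed along with a technical one. A brain region appears in the extraction text although cell and source labels are renal. The renal transcription factor PAX8 stood at 407 ± 8.89 CPM in the resistant and 545 ± 47.2 CPM in the control line (SD, n = 3 each). HNF4A, another transcription factor of the proximal tubule, had almost no counts in either line. Brain markers summed to 53.1 to 60.4 CPM in resistant and 32.7 to 35.6 CPM in control libraries. The tissue of origin of the RNA was not tested.

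Of the 9 brush border genes, 5 passed the low-count filter, and the other 4 (LRP2, ANPEP, AQP1 and VIL1) were near the limit of detection in both lines. CUBN, DPP4, ENPEP and MME rose and GGT1 fell in the resistant line, so that all 5 tested were called, where 76.2% of all tested genes were. The groups did not overlap for CUBN, DPP4, ENPEP and GGT1 among the tested genes, and did so for MME; over all tested genes the share without overlap was 80.3%. These shares are those of a pair of lines that differ in most genes. After the GC and length adjustment CUBN and DPP4 remained higher, GGT1 was higher in place of lower, and ENPEP and MME did not pass. Resistant replicate 1 had the lowest level of the resistant libraries for CUBN, DPP4, ENPEP and MME and the highest for GGT1; without it the log2 fold changes were 2.36 for CUBN, 1.32 for DPP4, 1.35 for ENPEP, 1.10 for MME and -0.51 for GGT1 on the TMM scale, and all 5 were still called.

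**Figure D1:**
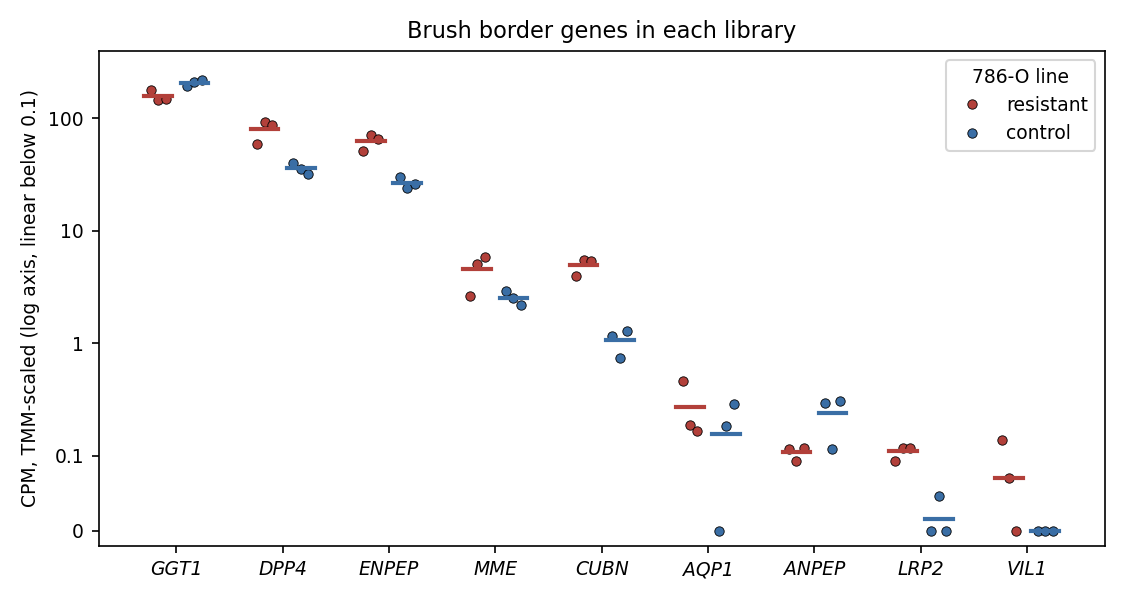
Level of each brush border gene in CPM (counts divided by the TMM-scaled library total), on a logarithmic axis that is linear below 0.1, with 1 point per library and a bar at the mean of the 3 resistant (red) and 3 control (blue) libraries. The genes span the range from GGT1, at 146 to 180 CPM in resistant and 193 to 220 CPM in control libraries, to VIL1, with 0 counts in each control library.

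On a scale per transcript length (RPKM with TMM-scaled totals and the median GENCODE transcript length), the order of levels was GGT1, DPP4, ENPEP, MME and CUBN in both lines. GGT1 stood at 158 ± 19.5 RPKM in the resistant and 207 ± 13.6 RPKM in the control line, and DPP4 at 36.8 ± 8.40 and 16.6 ± 2.01 RPKM in the resistant and control lines. ENPEP followed at 9.10 ± 1.51 RPKM in the resistant and 3.86 ± 0.449 RPKM in the control line, MME at 1.78 ± 0.663 and 0.998 ± 0.137 RPKM in the resistant and control lines, and CUBN at 0.417 ± 0.0755 RPKM in the resistant and 0.0887 ± 0.0239 RPKM in the control line. Neighbours among these 5 levels lay apart by more than their SDs in either line. In the control line CUBN did not stand apart from AQP1, at 0.0867 ± 0.0802 RPKM, or ANPEP, at 0.0652 ± 0.0294 RPKM. In the resistant line the levels of VIL1 and ANPEP, 0.0354 ± 0.0353 and 0.0296 ± 0.00367 RPKM, did not differ beyond their spread. With the longest transcript of each gene the order of the first 5 was unchanged, while GGT1 stood at 60.1 ± 7.42 RPKM in the resistant and 78.9 ± 5.18 RPKM in the control line.

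GGT1 was the main contributor to the summed level of the list in each library, and the direction of its share between the lines depended on the adjustment. On the TMM scale it held 60.5%, 45.3% and 47.2% of the summed CPM of the 9 genes in resistant replicates 1, 2 and 3, and 72.0%, 76.8% and 78.0% in control replicates 1, 2 and 3. After adjustment for GC content and length its share of the 5 tested genes was 71.2%, 65.7% and 66.0% in resistant replicates 1, 2 and 3 and 59.2%, 61.5% and 60.5% in control replicates 1, 2 and 3. The share was thus lower in every resistant library on the first scale and higher in every resistant library on the second. On the TMM scale the other 8 genes together summed to 118, 176 and 165 CPM in the resistant libraries and to 75.1, 63.4 and 62.1 CPM in the control libraries.

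The windows around the annotated starts of the 4 tested genes whose groups did not overlap are shown because base composition enters the results above; promoter windows and transcripts differ in composition. Sequences are RefSeq's on GRCh38.p14, from 250 bases before to 50 after the start and in the direction of transcription. Capitals mark matches on either strand to AGGTCA (core of the site of many nuclear receptors), the GC box, spelled GGGCGG, or the TATA box, which was searched for as TATAAA.
CUBN chr10:17129762-17130061 (- strand): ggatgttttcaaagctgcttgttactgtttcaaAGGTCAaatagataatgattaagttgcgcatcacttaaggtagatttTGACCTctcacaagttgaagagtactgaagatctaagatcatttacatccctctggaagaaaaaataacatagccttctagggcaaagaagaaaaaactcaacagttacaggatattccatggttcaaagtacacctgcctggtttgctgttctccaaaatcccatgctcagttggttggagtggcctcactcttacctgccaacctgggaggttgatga
DPP4 chr2:162074166-162074465 (- strand): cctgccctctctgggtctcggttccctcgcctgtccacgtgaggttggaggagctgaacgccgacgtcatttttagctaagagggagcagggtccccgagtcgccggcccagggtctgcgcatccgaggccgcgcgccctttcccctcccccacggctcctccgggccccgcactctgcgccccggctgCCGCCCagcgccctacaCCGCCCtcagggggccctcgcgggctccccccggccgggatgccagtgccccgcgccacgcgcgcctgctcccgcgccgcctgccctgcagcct
ENPEP chr4:110475905-110476204 (+ strand): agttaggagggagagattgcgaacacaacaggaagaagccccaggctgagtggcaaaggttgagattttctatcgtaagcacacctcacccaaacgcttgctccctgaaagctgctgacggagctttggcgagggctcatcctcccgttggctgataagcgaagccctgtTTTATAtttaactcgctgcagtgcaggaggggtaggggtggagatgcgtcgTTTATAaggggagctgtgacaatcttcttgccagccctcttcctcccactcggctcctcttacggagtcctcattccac
GGT1 chr22:24583500-24583799 (+ strand): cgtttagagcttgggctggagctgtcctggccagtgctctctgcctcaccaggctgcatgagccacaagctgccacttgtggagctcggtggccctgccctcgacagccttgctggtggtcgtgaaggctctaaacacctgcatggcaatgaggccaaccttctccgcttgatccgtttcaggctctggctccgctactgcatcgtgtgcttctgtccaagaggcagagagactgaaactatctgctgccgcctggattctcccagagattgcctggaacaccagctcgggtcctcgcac
GGT1 chr22:24602943-24603242 (+ strand): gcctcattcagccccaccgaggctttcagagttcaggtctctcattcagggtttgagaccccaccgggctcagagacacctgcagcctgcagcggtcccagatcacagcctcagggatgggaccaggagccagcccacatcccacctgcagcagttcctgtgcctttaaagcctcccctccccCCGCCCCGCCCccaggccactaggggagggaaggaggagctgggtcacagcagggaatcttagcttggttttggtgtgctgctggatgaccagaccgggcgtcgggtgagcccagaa
The CUBN window was 40.7% G or C with 1 CpG and held 2 AGGTCA matches, a motif found in 13.8% of 35116 promoter windows. The DPP4 window was 75% G or C with 34 CpGs and 2 GC boxes, a motif of 44.95% of windows. ENPEP had 53.7% G or C and 2 TATAAA matches, a motif of 11.5% of windows. The 2 starts of GGT1 had 59.3% and 63.0% G or C, and the second had 2 GC boxes. The HNF1 core motif GTTAAT, also searched for on either strand, had 0 matches in the windows shown, and is a motif of 6.88% of windows. An ANPEP window, not shown, had 1 match. RefSeq's table held 13 windows for 8 of the 9 genes. A match is a description of letters and not a bound site.

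DPP4, dipeptidyl peptidase 4, cleaves N-terminal dipeptides from peptides such as incretins. It had 59.1, 93.1 and 87.3 CPM in resistant replicates 1, 2 and 3, against 40.5, 35.7 and 31.8 CPM in control replicates 1, 2 and 3. All 3 resistant libraries lay above all 3 control libraries, and resistant replicate 1 lay closest to the control line. The log2 fold change was 1.15 ± 0.17 (SE), a 2.22-fold higher level (edgeR adjusted p = 4.56e-05). After adjustment for GC content and length it was 0.82 ± 0.13, or 1.77-fold (edgeR adjusted p = 2.07e-04), and the groups still did not overlap.

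ENPEP, aminopeptidase A, which removes acidic residues from peptides including angiotensin II, had 51.5, 71.7 and 66.2 CPM in resistant replicates 1, 2 and 3 and 30.2, 24.1 and 26.2 CPM in control replicates 1, 2 and 3. The groups lay well apart, with a log2 fold change of 1.24 ± 0.14 (edgeR adjusted p = 7.40e-06). Its transcript is the poorest in GC of the list, at 39.0%, and its fold change was close to the median of 1.32 for genes of that GC content. After adjustment its levels were 42.1, 45.3 and 41.4 CPM in the resistant libraries and 46.1, 41.7 and 48.3 CPM in the control libraries, which overlapped, and the log2 fold change was -0.08 ± 0.08 (edgeR adjusted p = 0.400).

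MME, neprilysin, a zinc peptidase that degrades enkephalins and natriuretic peptides, was low. Its levels were 2.64, 5.09 and 5.89 CPM in resistant replicates 1, 2 and 3 and 2.91, 2.53 and 2.21 CPM in control replicates 1, 2 and 3. Resistant replicates 2 and 3 were higher than the control libraries, while resistant replicate 1 lay among them. The log2 fold change of 0.83 ± 0.28 (edgeR adjusted p = 0.0166) was not called without control replicate 3 (0.70, adjusted p = 0.0685) or without resistant replicate 3 (0.60, adjusted p = 0.0933), and the adjustment for GC and length brought it to -0.05 ± 0.24 (edgeR adjusted p = 0.858).

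GGT1, gamma-glutamyltransferase 1, splits extracellular glutathione and feeds cysteine recovery. It had 180, 146 and 148 CPM in resistant replicates 1, 2 and 3, against 193, 210 and 220 CPM in control replicates 1, 2 and 3. The groups did not overlap, though resistant replicate 1 came near the lowest control library, and the log2 fold change was -0.39 ± 0.11 (edgeR adjusted p = 0.00686). Scaled by library totals alone it was -0.05 and not called (adjusted p = 0.706). At 61.8% G or C its transcripts fall in the group of genes highest in GC content, where the median log2 fold change was -1.35 and 87.1% of 1422 genes were below GGT1. After adjustment the 6 libraries formed 2 tight groups, of 264, 271 and 260 CPM in the resistant and 143, 142 and 143 CPM in the control line, with a log2 fold change of 0.89 ± 0.06 (edgeR adjusted p = 3.54e-07). The direction of GGT1 between the lines depended on whether GC content and length were adjusted for.

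Reads of GGT1 could also have been assigned to its close copies, so its counts are uncertain. Of 7 copies looked for, GGT8P, an annotated pseudogene, had enough counts for the test, and rose to 23.3 ± 3.15 CPM in the resistant line, against 5.51 ± 1.48 CPM in the control line (log2 fold change 2.08 ± 0.19, adjusted for GC and length 3.27). GGT2, a further copy, had 32 counts over the resistant and 28 over the control libraries. The strand setting of the counting is not given, and GGT1 also overlaps SNRPD3 on its own strand and LRRC75B on the other in the GENCODE annotation. SNRPD3, a spliceosome protein gene, had a log2 fold change of 0.82 (adjusted 1.19) and LRRC75B of -1.43 (adjusted 0.09, not past the threshold), and their part in the GGT1 counts was not tested.

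ANPEP, aminopeptidase N or CD13, is among the abundant peptidases of the normal brush border, but it had 5, 4 and 5 counts in resistant replicates 1, 2 and 3 and 13, 5 and 14 counts in control replicates 1, 2 and 3. The ratio of summed counts on the TMM scale was 0.452 (exact 95% interval 0.223 to 0.871, counting error only), and the groups overlapped. It was below the filter, and in a fit without a filter it did not pass (edgeR adjusted p = 0.285).

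**Figure D2:**
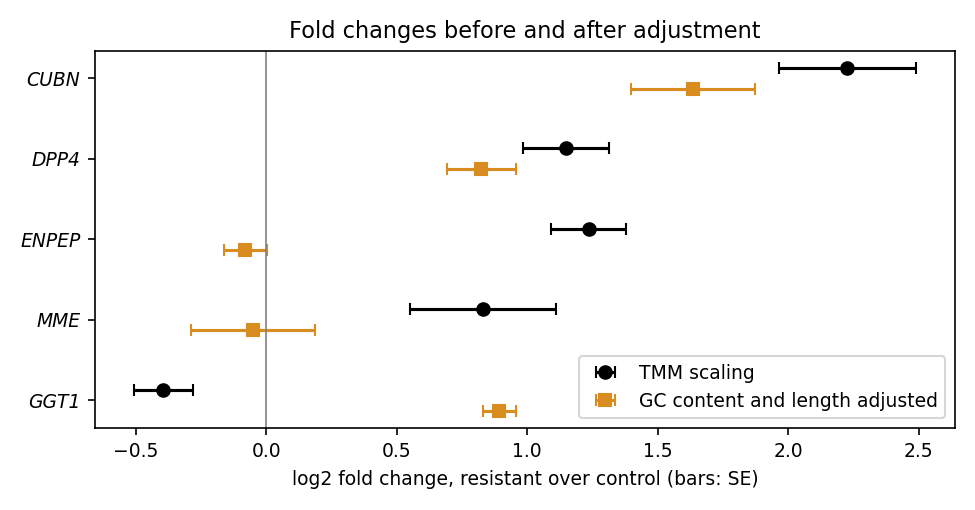
Log2 fold change of the 5 tested brush border genes, resistant over control, on the TMM scale (black circles) and after adjustment for transcript GC content and length (orange squares), with bars of 1 SE. CUBN and DPP4 stay to the right of 0 (2.23 and 1.15 before, 1.64 and 0.82 after), ENPEP and MME move to about 0, and GGT1 crosses from -0.39 to 0.89.

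Among the 5 tested genes, cubilin showed the largest fold change on the TMM scale and after adjustment. CUBN had 170, 238 and 230 counts in resistant replicates 1, 2 and 3 and 51, 32 and 58 counts in control replicates 1, 2 and 3, or 3.94, 5.56 and 5.42 CPM in the resistant and 1.16, 0.737 and 1.28 CPM in the control libraries. Every resistant library lay above every control library. The log2 fold change was 2.23 ± 0.26, or 4.68-fold (edgeR adjusted p = 8.55e-06), and after adjustment 1.64 ± 0.24, or 3.11-fold (edgeR adjusted p = 8.83e-05). At 46.5% G or C, 93.2% of 1421 genes of like GC content had a lower fold change. Over the 6 libraries the tested genes whose centred log2 CPM lay nearest to that of CUBN were ANKRD18B, ZRSR2 and RFX3, at Euclidean distances of 0.293, 0.299 and 0.332. Their log2 fold changes were 2.16, 2.12 and 2.17, near that of CUBN. A small distance over both lines requires a like fold change, and shared regulation was not tested.

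Megalin, the partner that carries cubilin into the cell, was almost absent. LRP2 had 4, 5 and 5 counts in resistant replicates 1, 2 and 3, against 0, 2 and 0 counts in control replicates 1, 2 and 3. The ratio of summed counts was 7.23 (exact 95% interval 1.66 to 65.6, counting error only), both control counts came from control replicate 2, and without a filter LRP2 did not pass (edgeR adjusted p = 0.156). AMN, amnionless, which brings cubilin to the membrane, had 0 counts over the resistant and 1 over the control libraries. CUBN thus rose in libraries with few counts of LRP2 and AMN.

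Of 11 partners of apical endocytosis, 9 were tested, of which 5 rose and 3 fell, and 3 were higher and 3 lower after adjustment. Their median log2 fold change was 0.35, and 0.01 after adjustment, beside 0.05 and 0.02 for all genes tested. Over all tested genes 39.3% were called higher and 36.9% lower, or 34.3% and 32.6% after adjustment. These shares stand beside the called counts of this list and of each list below. MYO6, a motor that moves endocytic vesicles off the microvilli, rose to 145 ± 20.3 CPM in the resistant line, against 27.2 ± 1.84 CPM in the control line (log2 fold change 2.42, adjusted 1.18). APPL1, an adaptor of early endosomes, rose to 116 ± 16.6 CPM in resistant cells, against 32.5 ± 5.11 CPM in control cells (1.83, adjusted 0.50). GIPC1, which links receptors to MYO6, fell to 68.9 ± 8.79 CPM in the resistant line, against 209.9 ± 22.01 CPM in the control line, but its log2 fold change of -1.61 became -0.03 after adjustment and did not pass (edgeR adjusted p = 0.713).

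**Figure D3:**
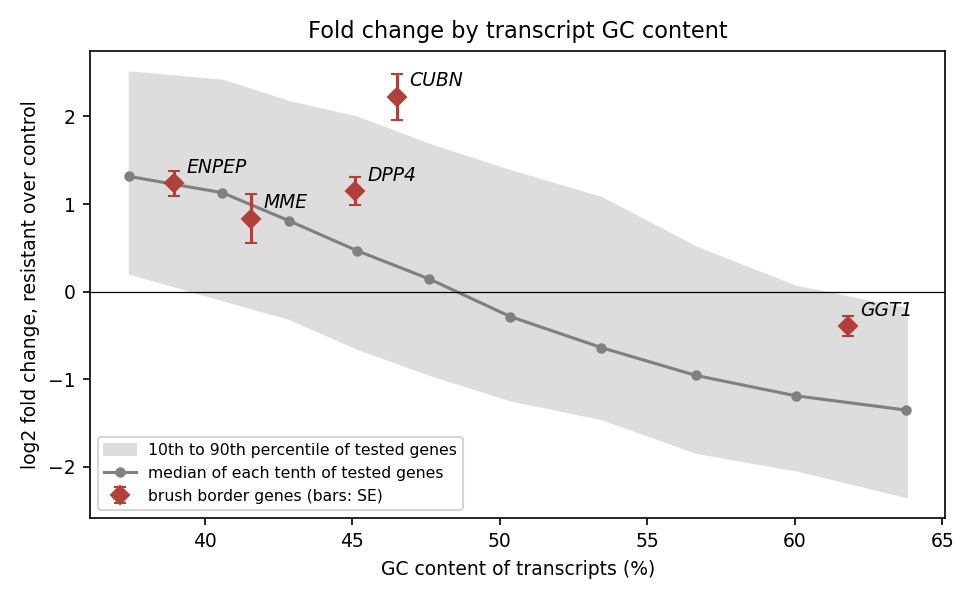
Log2 fold change, resistant over control, against GC content of transcripts in percent, with the median (grey line) and the 10th to 90th percentile (grey band) of 10 equal groups of 14212 tested genes, and the 5 tested brush border genes (red diamonds, bars of 1 SE). ENPEP and MME lie near the median line, DPP4 and GGT1 above it, and CUBN above the band.

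AQP1, the constitutive water channel of proximal tubule cells, was near the floor of 3 counts, which is 0.0663 to 0.0707 CPM over the 6 libraries. It had 20, 8 and 7 counts in resistant replicates 1, 2 and 3 and 0, 8 and 13 counts in control replicates 1, 2 and 3. Resistant replicate 1 was highest and control replicate 1 was at 0, and the groups overlapped. The ratio of summed counts was 1.72 (exact 95% interval 0.975 to 3.11) with all libraries, 1.11 without resistant replicate 1, 1.15 without control replicate 1 and 2.98 without control replicate 3. A difference was not detectable at this depth (edgeR adjusted p = 0.459 without a filter).

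VIL1, villin, had 6, 3 and 0 counts in resistant replicates 1, 2 and 3 and 0 counts in each control library. The resistant mean of 0.0697 CPM lay within the range of the floor of 3 counts per library, so no fold is given, and VIL1 did not pass without a filter (edgeR adjusted p = 0.0632). VIL1 overlaps USP37 on the opposite strand, which rose to 54.3 ± 6.48 CPM in the resistant line, against 20.2 ± 1.84 CPM in the control line (log2 fold change 1.42, adjusted 0.50). Whether reads of USP37 contribute to the few VIL1 counts was not tested.

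Other microvillus genes changed in both directions. Of 19 scaffold and core genes, 11 were tested, of which 6 rose and 5 fell, and 6 were higher and 3 lower after adjustment, with a median log2 fold change of 0.78 and 0.71 after adjustment. On the TMM scale the list summed to 2420 to 2573 CPM in resistant and 2975 to 3242 CPM in control libraries. The genes named below had the smallest p, and none of those called lower is among them. PDZK1, the scaffold that anchors apical transporters, rose to 75.8 ± 8.80 CPM in the resistant line, against 10.6 ± 2.10 CPM in the control line (log2 fold change 2.83 ± 0.16, edgeR adjusted p = 6.13e-08, adjusted for GC and length 2.35). MYO1D, a membrane-binding myosin, rose to 30.2 ± 2.45 CPM in resistant cells, against 1.85 ± 0.106 CPM in control cells (4.02, adjusted 4.01). PLS1, the actin bundler fimbrin of microvilli, rose to 54.1 ± 8.18 CPM in the resistant line, against 9.88 ± 1.40 CPM in the control line (2.45, adjusted 1.17).

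Apical transporters were called in both directions, where 39.3% of all tested genes rose and 36.9% fell (34.3% and 32.6% after adjustment). Of 24 listed, 7 had 0 counts in all libraries and 12 were tested, of which 6 rose, 1 fell and 5 did not pass, and 7 were higher and 1 lower after adjustment. The median log2 fold change was 0.72, and 0.63 after adjustment. ABCC2, an apical export pump for conjugates, rose to 32.6 ± 1.27 CPM in the resistant line, against 2.93 ± 0.931 CPM in the control line (log2 fold change 3.48 ± 0.19, edgeR adjusted p = 6.19e-08, adjusted for GC and length 2.91). SLC1A1, the glutamate and aspartate carrier, rose to 22.3 ± 4.15 CPM in resistant cells, against 3.38 ± 0.349 CPM in control cells (2.72, adjusted 2.11), and ABCC4, an exporter of cyclic nucleotides and drugs, rose to 161 ± 19.03 CPM in the resistant line, against 66.7 ± 4.84 CPM in the control line (1.27, adjusted 0.71).

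Other ectoenzymes of the membrane were mostly missing. Of 13, 6 had 0 counts in each library and 2 were tested. NT5E, the ecto-5'-nucleotidase CD73, fell to 15.9 ± 8.55 CPM in the resistant line, against 69.2 ± 2.999 CPM in the control line (log2 fold change -2.12, adjusted -2.57), and its resistant libraries were uneven, with 1114 counts in replicate 1 and 493 and 445 in replicates 2 and 3.

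**Figure D4:**
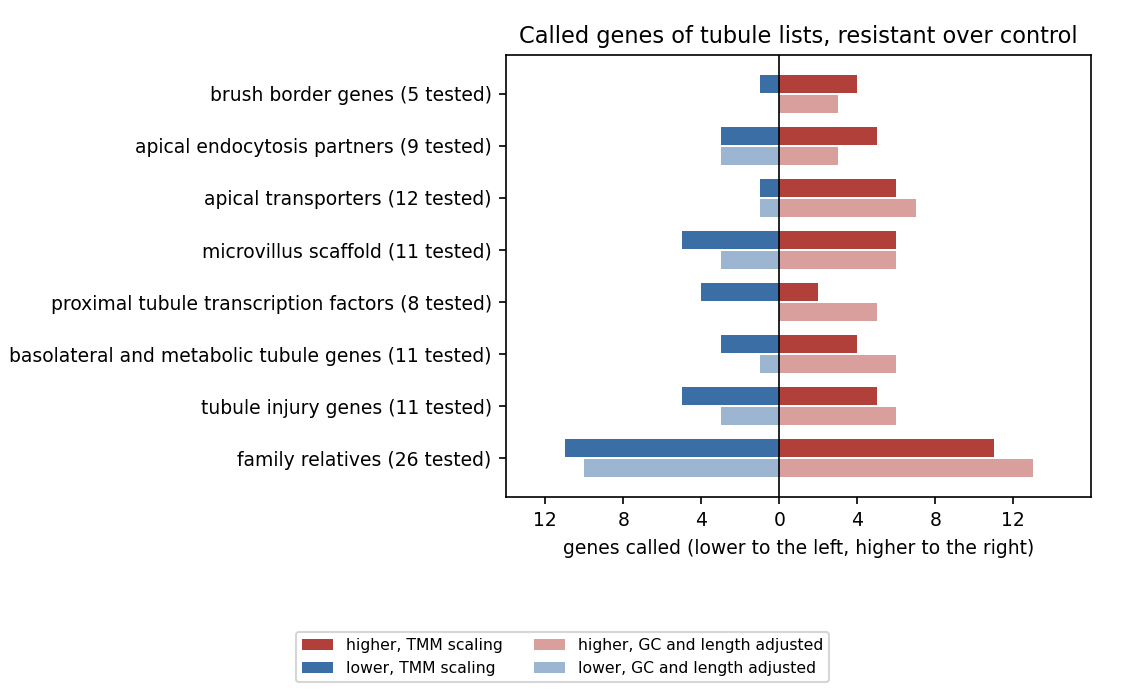
Number of called genes in each tubule list, lower in the resistant line to the left and higher to the right, on the TMM scale (full colour) and after adjustment for GC content and length (paler bars), blue for lower and red for higher, with the number tested beside each name. The transcription factors have 2 higher and 4 lower before and 5 higher and 0 lower after adjustment (3 and 0 with a replicate block, 4 and 1 with the longest transcript), while the apical transporters have 6 higher and 1 lower before and 7 higher and 1 lower after adjustment.

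Transcription factors of the proximal tubule lineage depended on the adjustment. Of 10 listed, 8 were tested, with 2 higher and 4 lower on the TMM scale and 5 higher and 0 lower after adjustment. The adjusted counts varied with the fit, at 3 higher and 0 lower with a replicate block and 4 higher and 1 lower with the GC content and length of the longest transcript. HNF4G rose to 27.1 ± 4.49 CPM in the resistant line, against 4.14 ± 0.877 CPM in the control line, on either scale (log2 fold change 2.71, adjusted 1.64). HNF4A, its close relative that drives brush border genes in tubule and gut, had 0 counts over the resistant and 6 over the control libraries. PAX2 had a log2 fold change of -1.10 on the TMM scale and 0.23 after adjustment.

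Of 19 basolateral and metabolic genes of the same cells, 6 had 0 counts in each library, and of 11 tested 4 rose and 3 fell, or 6 and 1 after adjustment (median log2 fold change 0.04, adjusted 0.38). SLC7A7, a basolateral amino acid exchanger subunit, rose to 15.9 ± 2.23 CPM in the resistant line, against 4.46 ± 0.739 CPM in the control line (log2 fold change 1.84, adjusted 2.18). The organic cation carrier SLC22A2 stood at 1.74 ± 1.03 CPM in resistant and 0.157 ± 0.0869 CPM in control libraries, and the tyrosine-degrading enzyme HPD at 1.09 ± 0.574 CPM in resistant and 0.135 ± 0.0564 CPM in control libraries. Both rose on either scale.

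Of 11 genes raised in injured tubules, all were tested, with 5 higher and 5 lower on the TMM scale and 6 higher and 3 lower after adjustment (median log2 fold change 0.32, adjusted 0.71). VCAM1, an adhesion molecule of unrepaired tubule cells, rose to 77.2 ± 4.80 CPM in the resistant line, against 22.1 ± 3.37 CPM in the control line (1.81, adjusted 0.87). CD24, a surface glycoprotein of tubule progenitors, fell to 105 ± 15.2 CPM in the resistant line, against 483 ± 41.7 CPM in the control line (-2.20, adjusted -2.61), and the keratin KRT19 fell to 0.234 ± 0.109 CPM in resistant cells, against 26.6 ± 3.16 CPM in control cells (-6.81, adjusted -5.42).

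Of 43 family relatives of the brush border genes, 26 were tested, with 11 higher and 11 lower on the TMM scale and 13 higher and 10 lower after adjustment (median log2 fold change -0.05, adjusted 0.45). The endothelin-converting enzyme ECE1, a relative of MME, fell to 352 ± 23.3 CPM in the resistant line, against 895 ± 97.2 CPM in the control line (-1.35, adjusted -0.28). The villin relatives GSN, which severs actin, and CAPG, which caps it, fell by 1.89 and 1.52 on the log2 scale, and by 0.67 and 0.28 after adjustment.

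Markers of other cells were low or moved in both directions. Of 21 genes of other nephron segments, 8 had 0 counts in each library and 5 were tested, with 2 higher and 2 lower (2 and 1 after adjustment), and the list summed to 27.3 to 30.6 CPM in resistant and 59.3 to 64.8 CPM in control libraries. PODXL and WT1, podocyte genes, had log2 fold changes of -1.69 and -1.06 (adjusted -0.37 and -0.03), and the sodium channel subunit SCNN1A of 1.92 (adjusted 2.94). Endothelial markers summed to 0.777 to 0.935 CPM in resistant and 0.0227 to 0.576 CPM in control libraries, and the 1 tested, PECAM1, did not pass (edgeR adjusted p = 0.132). Of 6 leukocyte markers, 3 including PTPRC had 0 counts in each library. The list summed to 0.654 to 1.23 CPM in resistant and 5.09 to 8.99 CPM in control libraries, most of it CSF1R (log2 fold change -3.11, adjusted -1.99). Fibroblast markers summed to 19.9 to 43.0 CPM in resistant and 5.22 to 6.94 CPM in control libraries, most of it LUM in the resistant line (4.16, adjusted 2.86). COL1A1 fell (-0.89, not past the threshold after adjustment) and COL3A1 did not pass, at 0.467 ± 0.0441 CPM in resistant and 0.240 ± 0.209 CPM in control libraries. Brain markers summed to 53.1 to 60.4 CPM in resistant and 32.7 to 35.6 CPM in control libraries, with 4 of 6 tested higher and 1 lower (5 and 1 after adjustment), SNAP25, SYT1 and MBP being higher on either scale, while GFAP had 2 counts over the resistant and 8 over the control libraries. The part of these markers in the brush border results was not tested.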

How the data were processed

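Whole-number counts by gene symbol were deposited by the authors. HISAT2 2.0.4 is named in the submitters' processing notes. Which counting program, strand setting, build or annotation was used is not stated there or in the labels. Columns were matched to samples by title, and 0 sample columns were left over. Genes were kept by filterByExpr (16642 of 54261), scaled by TMM and tested in R 4.3.3 by the quasi-likelihood method of edgeR 4.0.16, without covariates, with Benjamini-Hochberg adjustment over all tested genes at 0.05. Dividing the absolute log2 fold change by the root of F gave the SE. CPM and RPKM use TMM-scaled totals. Ratios of summed counts have exact 95% binomial intervals, which like floors of 3 counts cover counting error only: reads copied by PCR do not each stand for a molecule.

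For the adjustment, each library's deviation in log2 CPM (prior count 1) was fitted by natural splines, with 6 degrees of freedom for GC content and 5 for log2 length, as medians over GENCODE release 29 basic transcripts, and entered as an offset. Of tested genes 85.4% had a value. The test was run on simulated counts first. All 9 brush border genes are reported, with up to 3 members of each related list with the smallest p; some list members are not reported here. Members, lists and tests were chosen with earlier results of these data known. Alternatives were 6 fits leaving out a library, other scalings and filters, DESeq2 1.42.0, a replicate block and the adjustment with GC and length of the longest transcript, which was chosen after seeing the data.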

Additional observations from a re-analysis of the deposited data

How the results depend on the processing

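CUBN and DPP4 stayed higher and past the threshold under all 16 alternatives, with adjusted p up to 5.82e-04 for CUBN and 0.00126 for DPP4. Without 1 library, the log2 fold change ranged from 1.97 to 2.36 for CUBN, 1.02 to 1.32 for DPP4, 1.11 to 1.35 for ENPEP, 0.60 to 1.10 for MME and -0.51 to -0.34 for GGT1, and the number of brush border genes called higher from 3 to 4 with 1 lower in each fit, MME being lost without control replicate 3 or resistant replicate 3. Over all tested genes these fits called 6179 to 6789 higher and 5894 to 6410 lower. Adjusted for GC and length, MME was at -0.052, GGT1 at 0.89 and ENPEP at -0.080; with the replicate block added at -0.10, 0.89 and -0.079; with the longest transcript at -0.36, 1.05 and 0.024; and without resistant replicate 1 at 0.17, 0.88 and -0.059. Scaling by library totals alone, which moved the median of all genes by more than 0.1 (from 0.05 to 0.39), left GGT1 at -0.049. In each of these 5 fits the brush border genes called lower numbered 0 in place of 1. The cause was not tested. Adjusted p ranged over the alternatives from 2.29e-04 to 0.858 for MME, 4.90e-08 to 0.706 for GGT1 and 1.43e-15 to 0.811 for ENPEP.

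The replicate block without adjustment changed no call of a brush border gene (GGT1 -0.40, MME 0.77). Same-numbered libraries did not deviate together (r = -0.13, -0.01 and -0.06 for numbers 1, 2 and 3). With 3 libraries per line, this does not show whether the numbers pair the libraries. Of 28 counts in related lists, library totals moved 4 by over 1.5 times: lower members became 2 for the microvillus scaffold, 0 for basolateral genes and 7 for relatives, and higher basolateral genes 7. Without resistant replicate 3 no basolateral gene was lower, and without control replicate 3 there was 1. Depth limits LRP2, ANPEP, AQP1 and VIL1, where a library's few counts set the ratio: without 1 library it ranged from 4.76 to 7.78 for LRP2 where it could be formed (without control replicate 2 the control sum is 0 and the ratio has no upper limit), 0.360 to 0.529 for ANPEP and 1.11 to 2.98 for AQP1.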

Other observations

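Some genes of the related lists, below the count filter and picked after their values were seen, had counts almost solely in the control line. TMEM27 (collectrin, which brings amino acid carriers to the brush border) had 1, 0 and 0 counts in resistant replicates 1, 2 and 3. In control replicates 1, 2 and 3 TMEM27 had 17, 8 and 14 counts, a ratio of 0.0265. MYO7B, the myosin of the complex that links microvillus tips, had 0, 0 and 1 counts in resistant replicates 1, 2 and 3. In control replicates 1, 2 and 3 MYO7B had 15, 7 and 15 counts, a ratio of 0.0279. VILL, a villin-like gene, had 0, 0 and 2 counts in resistant replicates 1, 2 and 3. In control replicates 1, 2 and 3 VILL had 27, 10 and 17 counts, a ratio of 0.0383. As they were picked for this pattern, no test or interval is given. Other genes below the filter went the opposite way, with 9 counts over the resistant and 0 over the control libraries for VIL1 and 4 and 0 for the glucose carrier SLC5A1. In resistant replicates 1, 2 and 3 VIL1 had 6, 3 and 0 counts. All 4 counts of SLC5A1 came from resistant replicate 1.

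Within the resistant line, replicate 1 had the lowest level of 4 of the 5 tested brush border genes and the highest of the fifth, GGT1. After adjustment its GGT1 and ENPEP levels (264 and 42.1 CPM) lay between those of the other 2 resistant libraries (271 and 260 CPM, and 45.3 and 41.4 CPM), while its DPP4 level, at 58.9 CPM, stayed below their 87.6 and 83.5 CPM.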
